A study of Mus musculus with 157 samples.

Results

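Topoisomerases and the enzymes that clear their adducts were followed through 7 mRNAs, Top1, Top2a, Top2b, Top3a, Top3b, Tdp1 and Tdp2, each of which was found by its symbol as a single row among 19600 genes. The data were 3′ end sequencing counts of mRNA bound to ribosomes in splenic B cells of C57BL/6Babr mice, spread over sucrose gradients after DNA damage by etoposide, the drug that traps topoisomerase II on DNA. Cells of the LPS group had lipopolysaccharide, a B cell mitogen, at 10 µg/ml for 48 h. Cells of the LPS+ET group had the same LPS culture and then etoposide at 20 µM for 4 h. Cells of the LPS+ET+KU group had LPS for 47 h, then KU55933, an inhibitor of the kinase ATM, at 10 µM for 1 h, and then etoposide at 20 µM for 4 h. By these times the etoposide groups spent longer in culture than the LPS group, which cannot be told apart from etoposide. In a caption on p53 protein the authors instead place etoposide in the last 4 h of 48 h with LPS. All groups had cycloheximide, which holds ribosomes on mRNA, at 100 µg/ml for 3 min before lysis. Each group had 4 gradients of 13 fractions, and every gradient is named by its treatment and its library pool, LUL15 to LUL18, with 1 gradient of each treatment in a pool. There was no group with KU55933 alone, so that the inhibitor could only be compared on top of etoposide.

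Topoisomerases cut DNA, let the strands pass or turn, and seal them again, with the enzyme joined to the cut end by a tyrosine in between. Top1 cuts a single strand ahead of and behind moving polymerases, Top2a and Top2b cut both strands, and Top3a and Top3b act on single-stranded nucleic acid. Tdp1 removes Top1 left on the 3′ end of a break, and Tdp2 removes topoisomerase II left on the 5′ end, the kind of lesion that etoposide makes. In cycling lymphocytes Top2a is made mainly around G2 and mitosis, whereas Top2b is also present in resting cells.

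Every transcript gave a tag only at its 3′ end, so that levels of different genes did not depend on transcript length. Levels are given as CPM, the counts of a gene in fractions 4 to 16 of a gradient scaled to the total of all genes there. Gradient totals ran from 6404957 to 21449781 counts, and the 156 fraction libraries held 14724 to 4170688 counts. Equal RNA concentrations went into the libraries, so that a library total does not measure how much mRNA its fraction held. In these bulk samples, fewer cells that make an mRNA and less of it per cell cannot be told apart.

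The p53 targets, listed as a check of the drug response, were called higher in LPS+ET than in LPS for 6 of 6 genes (Cdkn1a by 4.64 and Ccng1 by 3.35 on the log2 scale). In LPS+ET+KU against LPS 5 of the 6 were called higher. Between LPS+ET+KU and LPS+ET 0 of the 6 were called, with 5 negative log2 differences and 1 positive (median -0.33). The 7 B cell markers summed to between 6254 and 11043 CPM in every gradient. None of them was called in any comparison, and in LPS+ET against LPS 6 of 7 log2 differences were negative (median -0.72). The 5 T cell markers found of 7 summed to 130 to 159 CPM for LPS, 108 to 295 CPM for LPS+ET and 82.8 to 374 CPM for LPS+ET+KU. The 7 myeloid markers found of 8 summed to 26.1 to 49.9 CPM for LPS, 21.2 to 112 CPM for LPS+ET and 25.7 to 84.8 CPM for LPS+ET+KU. Of the 6 tested, Cd14 and Fcgr3 were called higher in LPS+ET+KU than in LPS, with 5 log2 differences positive and 1 negative (median 0.72). In LPS+ET against LPS none of the 6 was called, and all 6 were positive (median 0.89). The 1 NK and 3 erythroid markers found did not exceed 1.40 CPM in sum, with Alas2 at 0 counts in LPS. The part of these other cell types in the results below was not tested.

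The 7 genes lie on 6 chromosomes of the GRCm38 assembly, and the tags of each were counted at 1 to 3 poly(A) sites. Top2a (ENSMUSG00000020914) occupies chr11:98992943-99024189 on the minus strand, and all of its 394718 counts, 5 of them in the library of fraction 17, came from a site at base 98992952, in the 3′ UTR of exon 36 of 36. Top2b (ENSMUSG00000017485) occupies chr14:16365179-16430787 on the plus strand in the deposited table, and its 14095 counts came from a site at base 16430787 in the 3′ UTR of the last exon, 4675 bases short of the transcript end in GENCODE M21. Top1 (ENSMUSG00000070544) lies at chr2:160645888-160722764 on the plus strand, with 95.1% of its counts at base 160722758 and 4.93% at base 160722103, both in the 3′ UTR.

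The 30 bases that end at the counted site are shown for the topoisomerases whose levels differed most between treatments and for Top3a. They mark the site on which each value mainly rests, which for Top2b lies 4675 bases short of the annotated transcript end. Capitals mark the poly(A) signal, AATAAA or its variant ATTAAA.
Top2a: attttgtactttAATAAAtcttctaaacaa
Top2b: tgaaatttaaacATTAAAaatggaactgtg
Top1: ggttatttaaAATAAActcctacaacttaa
Top3a: atgtgccttAATAAAaaaaatgcatccata

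Top3a (ENSMUSG00000002814, chr11:60740058-60777365, minus strand) and Top3b (ENSMUSG00000022779, chr16:16870736-16892990, plus strand) were each counted at 1 site, at the annotated end of the transcript. Tdp1 (ENSMUSG00000021177, chr12:99884517-99955219, plus strand) had 1 site in the 3′ UTR, 49 bases before the transcript end. Tdp2 (ENSMUSG00000035958, chr13:24831679-24842153, plus strand) was split over 3 sites, with 48.2% of its counts at base 24842147, 45.3% at base 24841573 and 6.52% at base 24833252, which no exon of the gene holds in GENCODE M21. No other annotated gene covered any of these sites.

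Top2a dominated the family. It ranked 31st of all genes by mean level over the 12 gradients (2530 CPM) and held 90.6% of the counts of the 7 genes. Top2b, the other topoisomerase II, followed at 91.2 CPM (rank 1784) and Top1 at 67.5 CPM (rank 2377). Top2a as counted was at 27.8 times the level of Top2b. Top2b was counted only at a site 4675 bases short of its annotated transcript end. Tags nearer that end, if any, are not in its level. Tdp1 (38.7 CPM), Top3b (33.6 CPM) and Top3a (25.9 CPM) lay close together, and Tdp2 was the scarcest at 8.79 CPM, with 41 to 193 counts per gradient. Each neighbouring pair in this order overlapped over the gradients, except that all Top2a values were above those of Top2b and all Tdp2 values below those of Top3a. Of the other topoisomerase genes, Top1mt, the mitochondrial type I enzyme, had 5.96 ± 1.02 CPM in LPS (SD, n = 4), and Spo11, which cuts DNA in meiosis, had 0 to 5 counts per gradient.

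**Figure D1:**
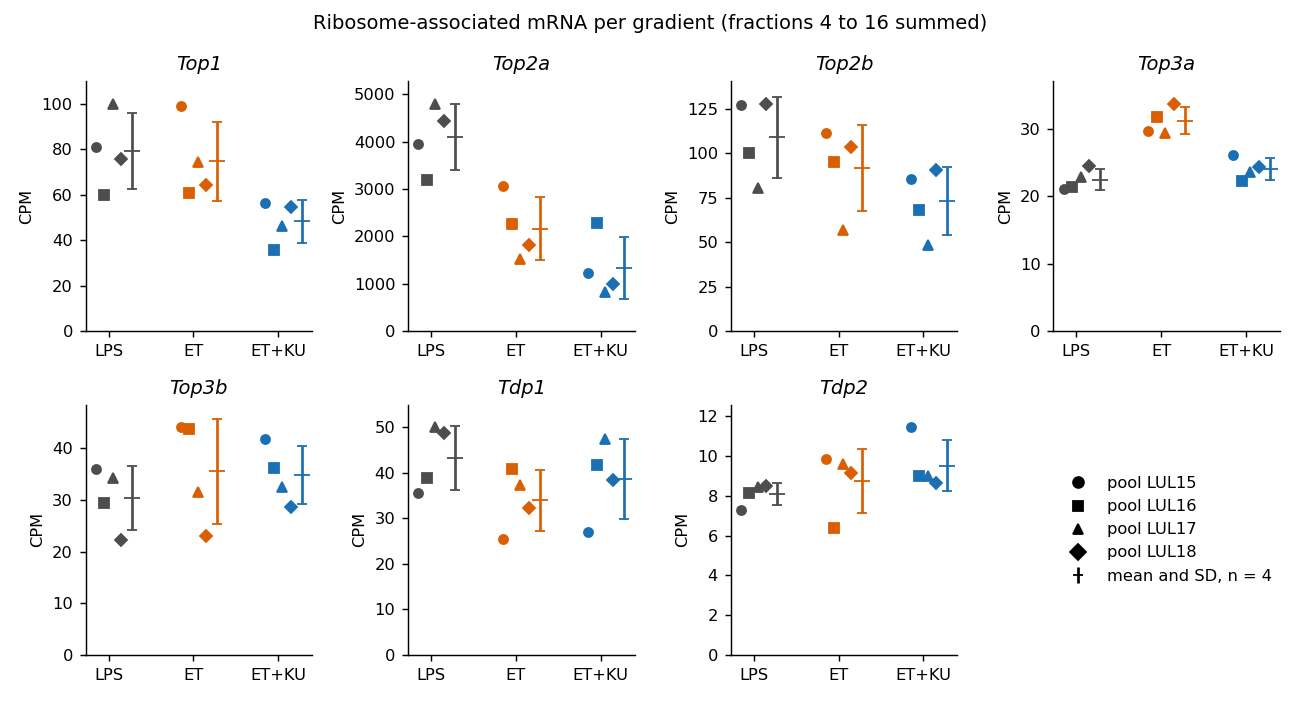
Level of each mRNA in CPM (y axis, from 0) in every gradient by treatment (x axis), with point shapes for the pools and bars for mean and SD of 4 gradients. Top2a gradients of LPS lie at 3179 CPM or more and those of both etoposide groups at 3054 CPM or less, Top3a gradients of LPS+ET lie above all others, and the Tdp1 and Top3b groups overlap.

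Top2a, the main target of etoposide in dividing cells, had lower levels in both etoposide groups than in LPS. In LPS it stood at 3955, 3179, 4796 and 4438 CPM in pools LUL15, LUL16, LUL17 and LUL18. In LPS+ET it stood at 3054, 2266, 1516 and 1824 CPM, and in LPS+ET+KU at 1230, 2274, 833 and 993 CPM, in the same order of pools. Every gradient with etoposide was below every LPS gradient, and the etoposide groups overlapped through the LPS+ET+KU gradient of pool LUL16. How many of all genes show groups of gradients apart in this way, here or in the results below, was not counted. Summed counts weight each fraction by the depth of its library. In fraction 16 the LPS libraries held 91237 counts of Top2a at a mean of 24614 CPM. Those of LPS+ET held 9107 counts at 12388 CPM and those of LPS+ET+KU 5805 counts at 5880 CPM. Fraction 16 was thus sequenced more deeply in LPS and weighed more in its levels.

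Differences were tested with edgeR on 4 gradients against 4 over 12755 genes and called at an adjusted p under 0.01. The log2 difference of Top2a between LPS+ET and LPS was -1.04 ± 0.30 (SE, adjusted p = 0.0218), which was not called. Its level was lower in 4 of 4 pools, and with the pools as a block the difference was -1.10 with an adjusted p of 0.00433, under the threshold, in a fit that called 3403 genes in all. DESeq2 gave an adjusted p of 0.00399, and the scaling that weights each fraction equally gave -0.68 (adjusted p = 0.141). The main edgeR fit, which left the pools out, called none of the 7 genes in this comparison, against 12.7% of all genes tested. Top2a and Top3a had an unadjusted p under 0.05 in that fit, where 4384 of the 12755 genes did. DESeq2 called 1 of the 7, and 2391 genes in all against 1618 by the main edgeR fit.

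In LPS+ET+KU against LPS, Top2a fell by 1.74 on the log2 scale (log2 difference -1.74 ± 0.30 SE, adjusted p = 0.00150), a level 3.34-fold lower. Within pools the log2 ratio of the levels was -1.69 in LUL15, -0.48 in LUL16, -2.53 in LUL17 and -2.16 in LUL18. Top2a passed the threshold whichever single gradient was left out, and without the LPS+ET+KU gradient of pool LUL16 the difference was -2.13. Together with Top1 it made 2 of 7 genes called in this comparison by the fit without the pools, against 10.7% of all genes tested. With the pools as a block Top2b was under the threshold too, with values given below. Between LPS+ET+KU and LPS+ET, Top2a differed by -0.69 ± 0.30 (SE, adjusted p = 0.264), and 0 of 7 genes were called against 0.455% of all genes tested. Top1, Top2a and Top3a had an unadjusted p under 0.05 there, as did 2031 of the 12755 genes.

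Top2b, the topoisomerase II that cells also make outside the cycle, showed smaller differences. It was at 127, 100.2, 80.7 and 128 CPM in LPS, at 111, 94.9, 57.0 and 103.5 CPM in LPS+ET, and at 85.3, 67.9, 48.2 and 90.3 CPM in LPS+ET+KU, in pools LUL15 to LUL18. The groups overlapped, but within each of the 4 pools the order was LPS, LPS+ET and LPS+ET+KU from high to low. The log2 difference from LPS was -0.36 ± 0.25 (SE, adjusted p = 0.332) in LPS+ET and -0.70 ± 0.25 (SE, adjusted p = 0.0572) in LPS+ET+KU. With the pools as a block the latter was -0.71 with an adjusted p of 0.000417, and with each fraction weighted equally it was -0.10 (adjusted p = 0.855). Between the etoposide groups Top2b differed by -0.33 ± 0.25 (SE, adjusted p = 0.567).

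The ratio of Top2a to Top2b counts, taken after both levels had been seen, compared the pair within each gradient. Its counts were summed over fractions of unequal depth. In LPS the mean level of Top2a was highest in fraction 16 and that of Top2b in fraction 15. The ratio therefore also depends on the depth of these fractions. Top2b entered it with the counts of its 1 site, short of the annotated transcript end. It was 31.2, 31.7, 59.5 and 34.7 in LPS, then 27.4, 23.9, 26.6 and 17.6 with etoposide, and 14.4, 33.5, 17.3 and 11.0 with KU55933 added. All LPS+ET ratios were below all LPS ratios, with a log2 difference of geometric means of -0.68 (exact permutation test, two-sided, p = 0.0286, the smallest that 4 against 4 allows, adjusted p = 0.0858). The LPS+ET+KU gradient of pool LUL16 was again the exception, and the difference from LPS was -1.12 (exact permutation p = 0.0857, adjusted p = 0.129), while LPS+ET+KU against LPS+ET gave -0.44 (exact permutation p = 0.314, adjusted p = 0.314). The adjustment covered these 3 comparisons, and with 4 gradients against 4 this test cannot reach a p under 0.01. Within pools the LPS+ET ratio was below the LPS ratio in 4 of 4.

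**Figure D2:**
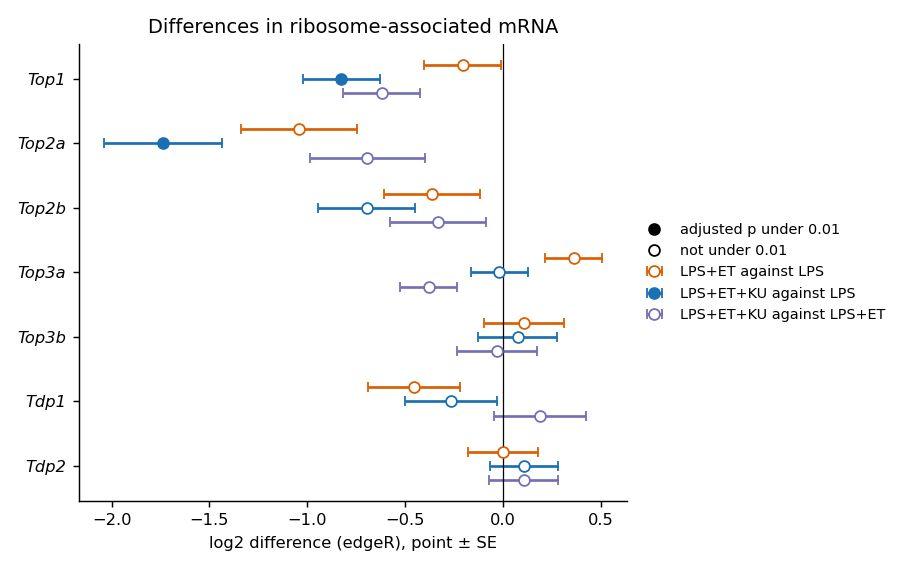
Log2 difference of ribosome-associated mRNA (x axis) for each mRNA (y axis) in 3 comparisons, as edgeR estimate ± SE of the fit without the pools. Points are filled where the adjusted p was under 0.01. Filled points stand at Top2a (-1.74) and Top1 (-0.83) in LPS+ET+KU against LPS.

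Most mRNAs of the G2 and M phase list, which does not hold Top2a, were lower in both etoposide groups. Of 20 such genes, 11 were called lower in LPS+ET than in LPS and none higher, with a median log2 difference of -1.06 against 0.03 over all genes. In LPS+ET+KU against LPS 16 of 20 were called lower and none higher, with a median of -1.59 against 0.09 over all genes. Plk1, a kinase of mitotic entry, had log2 differences of -2.39 in the first and -2.84 in the second comparison, and Ube2c, which helps to destroy cyclins, of -1.97 and -2.07. Cenpf, a kinetochore protein, had -1.63 and -1.92, and Aurka, a spindle kinase, -1.62 and -2.01. Ccnb1, the cyclin of mitotic entry, had -1.498 and -2.16. Its kinase Cdk1 was named by size in the second comparison (-1.85), and Nusap1, a spindle protein, in the first (-1.34). Of 14 S phase genes none was called in LPS+ET against LPS (median 0.03), and Mcm6, a subunit of the replicative helicase, was the 1 gene called in LPS+ET+KU against LPS, where it fell by 0.75, with 13 of 14 log2 differences negative (median -0.28). No gene of either list was called between LPS+ET+KU and LPS+ET, where the log2 differences were negative for 19 of 20 G2 and M phase genes (median -0.47) and 13 of 14 S phase genes (median -0.33). The part of the cells' distribution over the cycle in the Top2a values was not tested.

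The promoters of Top2a and Top2b are shown as a description, with CCAAT boxes marked. The sequences are RefSeq entries of GRCm38.p6 that run from 250 bases before to 50 after the gene start on the gene's own strand, and capitals mark CCAAT or its reverse complement ATTGG.
Top2a: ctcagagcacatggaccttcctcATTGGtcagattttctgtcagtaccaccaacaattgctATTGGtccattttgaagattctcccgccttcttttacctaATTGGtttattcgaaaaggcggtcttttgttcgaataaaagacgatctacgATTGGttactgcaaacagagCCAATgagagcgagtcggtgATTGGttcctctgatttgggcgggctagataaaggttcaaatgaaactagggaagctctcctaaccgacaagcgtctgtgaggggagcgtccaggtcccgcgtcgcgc
Top2b: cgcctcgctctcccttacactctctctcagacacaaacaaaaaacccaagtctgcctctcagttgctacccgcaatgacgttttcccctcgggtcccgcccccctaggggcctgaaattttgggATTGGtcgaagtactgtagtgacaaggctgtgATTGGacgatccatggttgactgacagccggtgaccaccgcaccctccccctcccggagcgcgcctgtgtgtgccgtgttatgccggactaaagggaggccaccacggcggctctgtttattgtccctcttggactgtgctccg

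The Top2a sequence lies at chr11:99024140-99024439 (minus strand) and that of Top2b at chr14:16364956-16365255 (plus strand). The Top2a sequence held 6 matches, 1 of CCAAT and 5 of ATTGG, and that of Top2b held 2 of ATTGG. Of 27025 promoters of this length, 37.9% held at least 1 match on either strand, 12.2% at least 2 and 0.0814% (22 promoters) at least 6. Among 17 of the 20 G2 and M phase genes with an entry, 15 held at least 1 match and 1, Ube2c, held 6. Of 12 of the 14 S phase genes with an entry, 10 held at least 1. At least 2 were held by 58.8% of the G2 and M phase promoters and 50% of the S phase promoters. At least 3 were held by 23.5% and 33.3%, in this order. The promoters of Top1 and Tdp1 held no match and that of Top3b held 1, while Top3a and Tdp2 had no entry. These letters describe the sequences, and whether any of them is bound was not measured. Their part in the mRNA levels was not tested.

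Top1, which relaxes DNA during transcription and replication, was called lower in LPS+ET+KU than in LPS, and in neither other comparison. It was at 81.3, 59.9, 100.1 and 75.9 CPM in LPS and at 99.2, 60.7, 74.5 and 64.4 CPM in LPS+ET, in pools LUL15 to LUL18, and these groups overlapped. In LPS+ET+KU it was at 56.5, 35.7, 46.5 and 54.6 CPM, and all 4 gradients were below those of both other groups. The log2 difference from LPS was -0.21 ± 0.20 (SE, adjusted p = 0.512) in LPS+ET. In LPS+ET+KU, Top1 fell by 0.83 (log2 difference -0.83 ± 0.20 SE, adjusted p = 0.00957), and against LPS+ET the difference was -0.62 ± 0.20 (SE, adjusted p = 0.121).

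The call of Top1 rested on a p close to the threshold. It was kept without the LPS gradient of pool LUL16 and lost without any other single gradient of the 8, with adjusted p from 0.00967 to 0.0287 and log2 differences from -0.93 to -0.71. With each fraction weighted equally the difference was -0.38 (adjusted p = 0.160), and with the pools as a block it was -0.83 (adjusted p = 0.000490). Against LPS+ET the blocked value was -0.63 with an adjusted p of 0.0105, which missed the threshold.

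Top3a, which works with Blm and the Rmi proteins to take apart joined DNA strands and also acts in mitochondria, was the 1 gene of the 7 whose LPS+ET gradients all lay above those of both other groups. How common this is among all genes was not counted. It was at 21.1, 21.4, 22.9 and 24.5 CPM in LPS, at 29.8, 31.9, 29.4 and 33.7 CPM in LPS+ET, and at 26.1, 22.2, 23.6 and 24.4 CPM in LPS+ET+KU. The log2 difference between LPS+ET and LPS was 0.36 ± 0.15 (SE, adjusted p = 0.0922), positive in 4 of 4 pools and not past the threshold, also with the pools as a block (0.36, adjusted p = 0.0287). LPS+ET+KU differed from LPS+ET by -0.38 ± 0.15 (SE, adjusted p = 0.205) and from LPS by -0.02 ± 0.14 (SE, adjusted p = 0.942). Top1mt gave a like set of values, 0.70 in LPS+ET against LPS (adjusted p = 0.0328), 0.11 in LPS+ET+KU against LPS and -0.59 between the etoposide groups, none past the threshold.

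Top3b, which acts on RNA and R-loops with Tdrd3, varied from 22.2 to 35.9 CPM over LPS gradients, from 23.1 to 44.0 CPM with etoposide and from 28.6 to 41.8 CPM with KU55933 added. The groups overlapped in all comparisons, and the log2 differences were 0.11, 0.08 and -0.03, each below its SE of 0.20. The partners of topoisomerase III, Blm, Rmi1, Rmi2, Tdrd3 and Fmr1, were all tested and none of the 5 was called in any comparison. Blm, the helicase of the Top3a complex, came nearest in LPS+ET+KU against LPS (log2 difference -0.69 ± 0.20 SE, adjusted p = 0.0236).

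Neither adduct repair enzyme passed the threshold in any comparison. Tdp1, which frees trapped Top1 and other blocked 3′ ends, was at 35.6, 38.8, 50.0 and 48.7 CPM in LPS, at 25.4, 40.9, 37.4 and 32.4 CPM in LPS+ET, and at 26.9, 41.8, 47.6 and 38.4 CPM in LPS+ET+KU. All groups overlapped, and the log2 difference of LPS+ET from LPS was -0.46 ± 0.24 (SE, adjusted p = 0.193), that of LPS+ET+KU from LPS -0.27 ± 0.23 (SE, adjusted p = 0.439). In LPS+ET+KU against LPS+ET, Tdp1 was higher in 4 of 4 pools, by 0.19 ± 0.24 on the log2 scale (SE, adjusted p = 0.760).

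Tdp2, the enzyme that removes trapped topoisomerase II, was at 7.32, 8.13, 8.46 and 8.48 CPM in LPS, at 9.87, 6.40, 9.62 and 9.14 CPM in LPS+ET, and at 11.4, 9.00, 9.00 and 8.64 CPM in LPS+ET+KU. The LPS+ET group spanned the whole LPS range, and the LPS+ET+KU gradients were all above the LPS gradients by small amounts. The log2 differences from LPS were 0.00 ± 0.18 (SE, adjusted p = 1.00) in LPS+ET and 0.11 ± 0.18 (SE, adjusted p = 0.694) in LPS+ET+KU, at 41 to 193 counts per gradient. Between the etoposide groups the difference was 0.11 ± 0.18 (SE, adjusted p = 0.826).

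Other genes that process trapped topoisomerases and broken ends were listed too. Of 19 such genes, 17 were found and tested, and 0 passed the threshold in each of the 3 comparisons by edgeR, against 12.7%, 10.7% and 0.455% of all genes, shares at which few calls among 17 genes would be seen in any case, with 6 positive and 11 negative log2 differences in LPS+ET against LPS (median -0.09) and 7 positive and 10 negative in LPS+ET+KU against LPS (median -0.08). An unadjusted p under 0.05 was reached by 5, 5 and 0 of them, against 4384, 4584 and 2031 of all 12755 genes tested. The nearest in LPS+ET was Zfp451, the SUMO ligase that works with Tdp2, at 0.65 ± 0.18 (SE, adjusted p = 0.0201). Sprtn, a protease of DNA-protein crosslinks, stood at 0.57 ± 0.21 (SE, adjusted p = 0.0634) in the same comparison. In LPS+ET+KU against LPS, Mre11a, a nuclease that trims blocked ends, stood at -0.91 ± 0.26 (SE, adjusted p = 0.0231) and Parp1, a sensor of strand breaks, at -0.57 ± 0.16 (SE, adjusted p = 0.0251).

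Along the gradient, the large topoisomerase mRNAs sat among the most heavily loaded of all. RiboLoad, the percentage of a gene's counts found in heavy polysomes (fractions 11 to 16, against monosomes in 4 to 7 and light polysomes in 8 to 10), was 88.5 ± 4.15% for Top2a, 87.3 ± 3.52% for Top2b and 84.3 ± 3.81% for Top1 in LPS (SD, n = 4). Among 8000 genes with 100 or more counts per gradient on average, 99.9%, 99.8% and 98.7% had a lower RiboLoad in LPS, in this order. Top3b (70.3 ± 6.04%), Tdp1 (67.8 ± 4.43%), Top3a (66.6 ± 8.26%) and Tdp2 (59.4 ± 9.40%) lay near the middle, with 66.5%, 59.0%, 55.7% and 38.8% of genes below them.

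The position of Top1, Top2a and Top2b near the top held in the damaged cells. When each fraction library was scaled to CPM, which removes the unequal depth of the fractions, at least 97.9% of the 8000 genes were below each of the 3 in every treatment. The scaled RiboLoad of Top2a averaged 88.8 ± 1.33% over LPS gradients, 86.5 ± 3.54% with etoposide and 81.1 ± 3.08% with KU55933 added (SD, n = 4). Its gradients stood at 87.9, 90.6, 89.0 and 87.7% in LPS, at 88.8, 81.8, 85.7 and 89.5% in LPS+ET, and at 79.7, 82.8, 84.5 and 77.6% in LPS+ET+KU, the last all below LPS. Top2b was at 87.3 ± 1.43%, 80.7 ± 4.21% and 86.6 ± 1.78% on the same scale, and its LPS+ET gradients (74.9 to 84.9%) all lay below its LPS gradients (85.9 to 88.6%). Top1 was at 82.5 ± 1.33%, 83.5 ± 4.60% and 83.5 ± 0.875%.

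**Figure D3:**
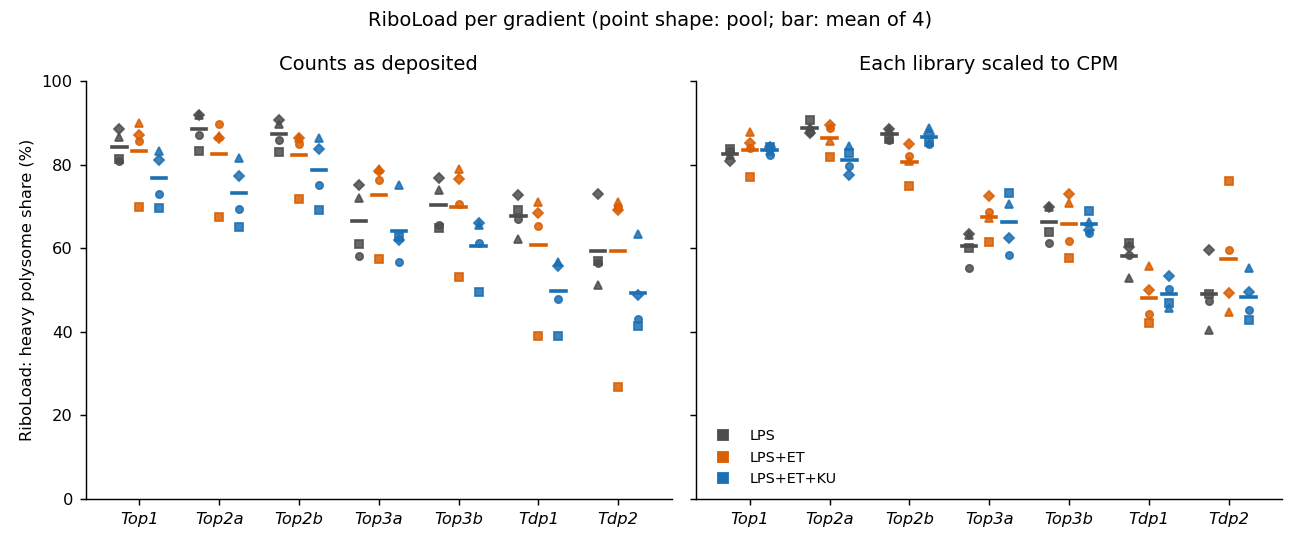
RiboLoad in percent (y axis) of each mRNA (x axis) by treatment, from counts as deposited and after scaling every library to CPM, with a point per gradient and a bar for the mean of 4. Top1, Top2a and Top2b have the highest means in each treatment, and the low LPS+ET gradient of pool LUL16 comes closer to the others after scaling.

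RiboLoad was not called for any of the 7 genes by limma in LPS+ET against LPS, in LPS+ET+KU against LPS or between the etoposide groups, where 0% of the 8000 genes were called in each comparison and 177, 737 and 252 genes had an unadjusted p under 0.05, Top2a and Tdp1 among the 737. Top2a in LPS+ET+KU against LPS had the largest difference of the 7, -1.52 ± 0.54 on the log2 scale of the odds (SE, adjusted p = 0.385), beside a median of -0.45 over all genes. The LPS+ET gradient of pool LUL16 stood low for Top2a, Top2b, Top3a and Tdp2 on the deposited scale, and only 30.4% of all its counts came from heavy polysomes, against 60.5 to 68.2% in the other LPS+ET gradients. Without that gradient the difference of Top2a between LPS+ET and LPS was -0.18 on the log2 scale of the odds, against -0.63 with it, and neither was called.

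Top2a lay deepest of the 7 in LPS and LPS+ET. In LPS its mean level within a library was highest in fraction 16, the bottom of the gradient, at 24614 ± 5072 CPM. Fraction 15 stood at 20323 ± 6717 CPM (SD, n = 4). Single gradients peaked in fraction 15 or 16 in LPS and in fractions 14 to 16 in LPS+ET. In LPS+ET the values were 12388 ± 6099 CPM and 11930 ± 7819 CPM, and in LPS+ET+KU 5880 ± 3623 CPM and 5009 ± 2041 CPM in fractions 16 and 15. In both fractions every LPS+ET+KU gradient was below every LPS gradient (913.8 to 9130 against 18358 to 30634 CPM in fraction 16), while LPS+ET overlapped LPS. In fraction 14 the 3 treatments were at 7411 ± 4128, 6638 ± 4616 and 7096 ± 6992 CPM, which was the highest mean of the LPS+ET+KU group, and in fraction 8, among light polysomes, at 1152 ± 173, 1096 ± 293 and 1071 ± 426 CPM. In fractions 14 and 8 all 3 groups overlapped. The mean fraction, the average fraction number weighted by level, was 14.2 ± 0.0909 for Top2a and 13.5 ± 0.311 for Top2b in LPS, but 13.3 ± 0.530 and 13.6 ± 0.456 with KU55933 added (SD, n = 4).

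The mean levels of Top2b and Top1 were highest in fraction 15 in all treatments. Single gradients peaked in fraction 14 or 15, and in LPS+ET the fraction 15 libraries held 3 to 316 counts of Top1. Top2b reached 447 ± 161 CPM there in LPS, 372 ± 217 CPM with etoposide and 582 ± 224 CPM with KU55933 added, and Top1 reached 347 ± 134, 334 ± 206 and 290 ± 94.1 CPM (SD, n = 4). Both were lower again in fraction 16, where Top2b stood at 236 ± 54.9 CPM in LPS. The mean of Top3a was highest in fraction 14, at 51.3 ± 17.4, 70.2 ± 25.2 and 78.5 ± 13.5 CPM. Its single gradients peaked in fractions 13 to 16. Tdp1 had a mean fraction of 11.0 ± 0.187 in LPS, against 10.7 for the median gene.

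**Figure D4:**
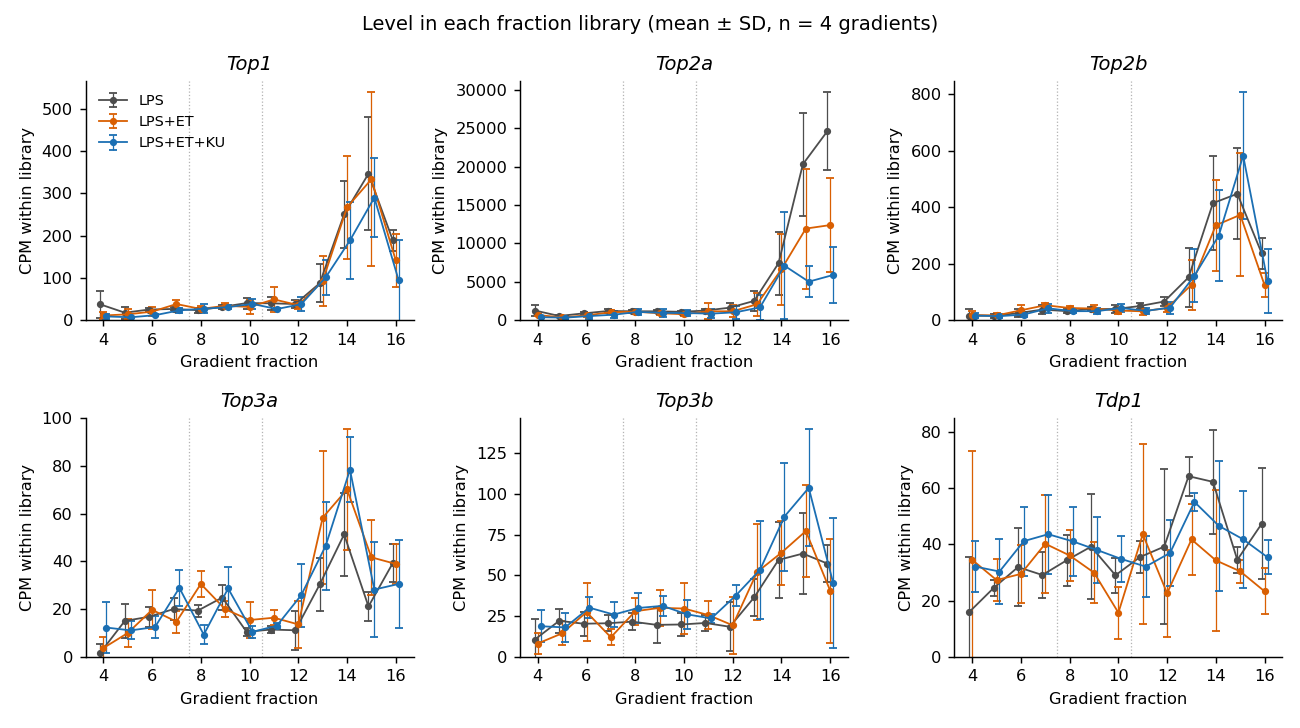
Level in each single fraction library in CPM (y axis, from 0, error bars cut there) against fraction number (x axis), as mean ± SD of 4 gradients for each treatment, with dotted lines between monosomes, light and heavy polysomes. The means of Top1 and Top2b peak in fraction 15 in each treatment and that of Top2a in fraction 16 in LPS and LPS+ET.

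The treatment by fraction interaction, tested with edgeR on the fraction libraries of each pair of treatments, called none of the 7 genes, although Top3a in every comparison and Top2a in LPS+ET+KU against LPS had an unadjusted p under 0.05. Of all genes tested, 1.37% were called in LPS+ET against LPS, 3.29% in LPS+ET+KU against LPS and 1.05% between the etoposide groups. An unadjusted p under 0.05 was reached by 1375 of 10360, 1819 of 10306 and 963 of 10472 genes, in this order. Top2a had an adjusted p of 0.279 in LPS+ET+KU against LPS, and with a replicate block by gradient in the model it was the 1 member called, while the genes called in all went from 339 to 1132. Top3a had adjusted p-values of 0.343, 0.106 and 0.118 in the 3 comparisons, with unadjusted p of 0.0403, 0.0101 and 0.00335.

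Tested within each class of fractions by the fit without the pools, Top2a was the 1 gene called, and only in heavy polysomes in LPS+ET+KU against LPS. There it fell by 1.74 on the log2 scale (log2 difference -1.74 ± 0.39 SE, adjusted p = 0.00768), 1 of 7 genes against 7.95% of all genes tested. Leaving out 1 gradient in turn, the call was kept only without the LPS+ET+KU gradient of pool LUL16, with adjusted p from 0.0150 to 0.0283 without each of the others and log2 differences from -2.25 to -1.56. In heavy polysomes 0 of 7 were called in LPS+ET against LPS (9.69% of all genes), where Top2a stood at -0.97 ± 0.38 (SE, adjusted p = 0.0960) and Top3a at 0.62 ± 0.24 (SE, adjusted p = 0.0822), and 0 of 7 between the etoposide groups (0.572%), where Top1 had an unadjusted p under 0.05, as did 1691 of 11368 genes.

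In monosomes 0 of 7 were called in LPS+ET against LPS (9.52% of all genes) by the fit without the pools, in LPS+ET+KU against LPS (5.96%) and between the etoposide groups (0.213%). The nearest were Top1 at -0.82 ± 0.20 (SE, adjusted p = 0.0124) and Top2a at -0.88 ± 0.27 (SE, adjusted p = 0.0426) in LPS+ET+KU against LPS, and both were under the threshold with the pools as a block. The block also put Top2a under it in LPS+ET against LPS, in monosomes (-0.56, adjusted p = 0.00524) and in heavy polysomes (-1.13, adjusted p = 0.00896). The shares of all genes given for these classes are those of the fit without the pools, and those of the blocked fits are not given here. Before adjustment, in the fit without the pools, Top1 was also under 0.05 between the etoposide groups, and no member was in LPS+ET against LPS. Of 8932 genes tested in monosomes, 1204 and 2863 were under it, in this order. In light polysomes 0 of 7 were called against 10.6%, 7.13% and 0.292% of all genes in the 3 comparisons. Top3a alone had an unadjusted p under 0.05, between the etoposide groups, where 1515 of 9922 genes did.

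The genes whose levels were most like each member were taken by Pearson's r of log2(CPM + 1) over the 12 gradients, among 7412 genes with a mean of 10 CPM or more. Kif4, a chromosome-bound motor of mitosis, was nearest to Top2a (r = 0.986), followed by Itpr3 (0.982) and AL831764.1 (0.980). Vcp (0.977), Dhx9 (0.953) and Pfas (0.948) were nearest to Top1, and Dis3 (0.913), Usp4 (0.897) and Rars2 (0.885) to Top2b. Cdh23, Kif18b and Ppp1r13l were nearest to Top3a (0.955 to 0.924), Tnfaip3, Gm12751 and Klhl9 to Top3b (0.924 to 0.903), and Sema7a, Zcchc18 and Fam104a to Tdp1 (0.941 to 0.936). Between members the largest value was 0.637, for Top2a with Top2b. These points share gradients, pools and treatments, and 7412 genes were searched for each.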

How the data were processed

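In the authors' methods, 3′ end libraries were made from identical RNA concentrations of each fraction, PCR duplicates were removed by unknown barcode bases, A tracts were trimmed, and reads were aligned to GRCm38 and summed per Ensembl gene, and the aligner of these libraries is not given in the sources used here. The deposited values are counts without normalization. Deposited positions count from 0 (13823 of 19264 genes start 1 base below GENCODE M21) and are printed counted from 1. Columns carry treatment, fraction and pool: 79 match 1 labelled sample and 78, of pools LUL16 and LUL18, a treatment and fraction only. Gradients of the same pool deviated together (r from 0.350 to 0.897 in 12 of 12 pairs across genes, against -0.674 to 0.409 between pools). The pools, known from column names, were therefore taken to pair them in the fits with a block, and the main fits left the pools out.

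For each gradient, counts were added up over fractions 4 to 16 or over a class of fractions, and tested with edgeR 4.0.16 (TMM factors 0.906 to 1.12, filterByExpr, quasi-likelihood test, treatment only, all 12 gradients, Benjamini-Hochberg over all genes). The study names 4 biological replicates without saying that they were separate animals, so p-values measure the spread between gradients. Those of the treatment by fraction interaction measure the spread between fraction libraries instead. RiboLoad was tested with limma 3.58.1 as a logit with 0.5 added. Alternatives used DESeq2 1.42.0. R 4.3.3, Python 3.11.15 and scipy 1.17.1 were used, and the models were tested on simulated data. All 7 members were named in every comparison of ribosome-associated mRNA, list genes where called (up to 6 by size) or, after their values were seen, where nearest to the threshold. The members and lists were chosen with earlier results of these data known. Protein sequences were not used here.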

Additional observations from a re-analysis of the deposited data

Results flagged for a closer look

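In groups of 4 gradients, a value was taken as standing apart when its gap to the nearest other divided by the group's range exceeded Dixon's 95% critical value, which chance reaches in about 1 of 20 groups, and 63 groups were examined. On the deposited scale of RiboLoad, the LPS+ET gradient of pool LUL16 stood apart for 4 of the 7 mRNAs. Top2a was at 67.5% there against 86.3 to 89.8% in the other LPS+ET gradients, Top2b at 71.9% against 84.9 to 86.5%, Top3a at 57.4% against 76.2 to 78.9%, and Tdp2 at 26.8% against 69.2 to 71.0%. Heavy polysomes gave 30.4% of all counts in that gradient, and after scaling each library to CPM none of the 4 stood apart. Its part in the other results was not tested beyond leaving it out.

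The level of Tdp2 in the LPS+ET+KU gradient of pool LUL15 was 11.4 CPM, against 8.64 to 9.00 CPM in the other 3 gradients.

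The library of fraction 17, which entered no comparison, held 777 counts in all, of which 5 were of Top2a and 0 of the other 6 mRNAs. A count of 0 there allows up to 3 counts.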

How the results depend on the processing

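The calls and printed log2 differences of the 7 mRNAs, but not the counts of the other lists or the likeness values, were recomputed, where each choice applied, under RLE size factors, no filter on low counts, the replicate block, equal weight for every fraction, only the 8 gradients compared, an adjusted p under 0.05, DESeq2, and without each gradient in turn. Between LPS+ET and LPS in ribosome-associated mRNA, 1 of the 7 genes, Top2a, was called with the replicate block, with the 8 gradients alone (-1.02, adjusted p = 0.00829), at an adjusted p under 0.05 and with DESeq2, where 3403, 1652, 2875 and 2391 genes were called in all against 1618, and 0 of the 7 without any gradient in turn. Between LPS+ET+KU and LPS, 1 gene, Top2a, was called with equal weights and with the 8 gradients alone, and 1 to 2 without each gradient. With the replicate block of pools, 1 gene (Top2a, -0.56 and -1.13) was called in monosomes and in heavy polysomes between LPS+ET and LPS, and 2 (Top1, -0.83, and Top2a, -0.97) in monosomes between LPS+ET+KU and LPS, where RLE size factors gave 1 (Top1). How many of all genes these fits by class called is not given here. Beside the blocked values given here and with the results, the block changed no other call. The range without each gradient was 0 to 1 for monosomes, where Top2a passed without the LPS+ET+KU gradient of pool LUL16 (-1.34, adjusted p = 0.000419), and 0 to 1 for heavy polysomes between LPS+ET+KU and LPS. The replicate block by gradient gave 1 gene, Top2a, for the distribution along the gradient in that comparison. The cause of these changes was not tested.

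Directions turned only for values that passed no threshold. Tdp2 in LPS+ET against LPS was -0.0038 with RLE, -0.0036 with the block, -0.0041 with DESeq2 and -0.0398 without a filter. With equal weights, Top3a (0.29) and Tdp1 (0.0412) in LPS+ET+KU against LPS, and Top2b (0.19), Top3b (0.29) and Tdp2 (-0.13) in LPS+ET+KU against LPS+ET, changed sign. Without each gradient in turn, values crossed 0 for Tdp2 (-0.0859 to 0.10), Top3b (-0.0345 to 0.24) and Top1 in heavy polysomes (-0.25 to 0.0287) in LPS+ET against LPS, for Top3a (-0.0776 to 0.0334) and Top3b (-0.0458 to 0.13) in LPS+ET+KU against LPS, and for Top3b (-0.17 to 0.11) between the etoposide groups. The ratio of Top2a to Top2b, with its alternatives chosen after seeing the data, moved to -0.95 between the etoposide groups with equal weights. Shallow libraries limit single fractions, and Tdp2, at 41 to 193 counts per gradient, is the least precise of the 7.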
